A study of Mus musculus with 2 samples.

Results

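*Tnfsf11*, *Prune2* and *Comp* were the 3 genes with the largest increases in XY somatic cells after 72 h with an FGF receptor inhibitor, out of 42422 genes in the count table and 15125 that passed the filter on low counts. All 3 passed that filter. They were chosen from the same libraries that show the increase, so their difference between FGFRi and DMSO at 72 h is a description of how they were picked and was not read as a test. The choice kept genes that were differentially expressed (DEG: FDR below 0.05 and a fold change of at least 1.5 in edgeR's quasi-likelihood test), had a mean level of at least 5 CPM over the 8 libraries compared (CPM, counts scaled to a common library size), and had no overlap between the groups. Among the 131 DEGs that were higher with FGFRi, 88 met every condition. The 3 were followed through all 10 groups of the study, with the response to a MEK1/2 inhibitor beside each.

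*Tnfsf11* encodes RANKL, a cytokine of the TNF superfamily that binds the receptor RANK (*Tnfrsf11a*) and is trapped by the soluble decoy osteoprotegerin (*Tnfrsf11b*). It is best known for driving osteoclast formation, and also acts in lymph node and mammary gland development. *Prune2* encodes a large cytoplasmic protein with a BCH domain, a module shared with the BNIP2 family that binds small GTPase regulators, and its role in the gonad is not well described. *Comp* encodes cartilage oligomeric matrix protein, a pentameric thrombospondin that binds collagens, matrilins and fibronectin in the matrix of cartilage and tendon. In the foetal testis, Sertoli cells enclose germ cells in cords, while the interstitium holds mesenchymal progenitors, Leydig cells, vessels, smooth muscle and macrophages. FGF receptors signal in part through the kinases MEK1/2 and ERK1/2.

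The study cultured E12.5 mouse gonads, each with its mesonephros, and sorted their somatic cells for bulk RNA-seq to compare blocking FGF receptors with blocking MEK1/2 in the developing testis. Embryos came from Swiss females and Oct4(Pou5fl)-eGFP males on a 129svJT2 background, with the genotype labelled WT, and the somatic cells were the GFP-negative fraction sorted after the mesonephros was removed. The 40 libraries formed 10 groups of 4, each library made from several pooled gonads. The groups were uncultured XX and XY cells, XX and XY cells after 24 h in the vehicle DMSO, XY cells after 24 h with 500 nM PD0325901 (MEKi, an inhibitor of MEK1/2) or 500 nM BGJ398 (FGFRi, an inhibitor of FGFR1-3), and the same 4 cultured groups at 72 h. Every inhibitor was thus tested at 1 dose and in XY gonads. The p-values below rest on how far libraries varied within groups, estimated over all 10 groups together and in part shared across genes. They do not measure the spread of the compared groups alone. In bulk RNA, more cells of a type and more RNA per cell cannot be told apart.

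Libraries held 1380707 to 4836550 counts, with a median of 2248854. They were made in 2 pools of 20. One pool held the uncultured cells, both 24 h DMSO groups and the 24 h MEKi group, and the other held the 24 h FGFRi group and all 72 h groups. For FGFRi against DMSO at 24 h, and for a change from 24 h to 72 h in the DMSO or MEKi groups, pool and condition cannot be told apart. One 24 h MEKi library, M2, is missing from the description of its pool, which names 19 libraries, but is in the count table and the list of libraries, and was kept. The MEK inhibitor lowered its known targets, with 11 of 13 tested ERK pathway output genes lower at 72 h, such as the feedback gene *Spry4* (log2 fold change -3.33). FGFRi lowered 2 of the 13 at 72 h, *Spry1* (-1.08) and *Spred1* (-0.65). At 24 h, MEKi lowered 10 of the 13 and FGFRi 5, the latter across pools. Each of these 24 h comparisons called 3.27% of all genes. Of all genes tested, 6.47% changed with MEKi and 1.8% with FGFRi at 72 h, in either direction. Sertoli cell markers summed to 2061 to 2370 CPM in uncultured XY cells and 120 to 249 CPM in uncultured XX cells. The FGFRi library M5 at 72 h stood apart from the other 3 of its group. Its 10 Sertoli markers summed to 2512 CPM against 1332 to 1414 CPM, and its 8 smooth muscle and pericyte markers to 733 CPM against 1048 to 1136 CPM. The 72 h FGFRi fold changes of the 3 genes against DMSO are therefore given with and without it. Other results of this group include M5 unless stated.

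In the annotation of GRCm39, the build of the count table, *Tnfsf11* (ENSMUSG00000022015.8) lies on the minus strand of chromosome 14 at 78514885 to 78545490 and has 1 transcript of 5 exons. *Prune2* (ENSMUSG00000039126.10) lies on the plus strand of chromosome 19 at 16933482 to 17201320, with 20 exons in its canonical transcript. *Comp* (ENSMUSG00000031849.9) lies on the plus strand of chromosome 8 at 70826192 to 70834716, with 19 exons. The 3 genes are thus on different chromosomes. Apart from annotated antisense transcripts at *Prune2* and *Comp*, which the strand-aware counting keeps separate, no other annotated gene overlaps them. None of 6 neighbours, the nearest tested gene on each side, was a DEG with either inhibitor at 72 h, including *Crtc1*, a CREB coactivator gene whose end lies 278 bases from that of *Comp* (FGFRi log2 fold change 0.20).

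Since *Tnfsf11* and *Prune2* were both higher with FGFRi, the 250 bases before their RefSeq start sites are shown for comparison, from the GRCm38.p6 promoter table, which had a row for 2 of the 3 genes. The *Tnfsf11* window is chr14:78308044-78308293 on the minus strand and that of *Prune2* is chr19:16955868-16956117 on the plus strand, each printed along the gene's own strand. Capitals mark the motif matches.
Tnfsf11: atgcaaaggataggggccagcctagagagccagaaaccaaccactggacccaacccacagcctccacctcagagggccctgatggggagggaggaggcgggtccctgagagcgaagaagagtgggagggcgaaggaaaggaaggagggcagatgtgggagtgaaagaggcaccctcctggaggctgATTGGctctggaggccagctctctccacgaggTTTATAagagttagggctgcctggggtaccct
Prune2: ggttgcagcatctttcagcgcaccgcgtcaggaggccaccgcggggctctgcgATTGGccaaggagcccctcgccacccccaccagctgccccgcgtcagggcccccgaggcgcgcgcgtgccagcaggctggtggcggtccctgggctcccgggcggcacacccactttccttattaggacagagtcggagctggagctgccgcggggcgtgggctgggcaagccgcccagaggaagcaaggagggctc
The windows differed in base composition. The *Tnfsf11* window was 60.4% G or C with 4 CpG dinucleotides, and the *Prune2* window 72% with 22, against medians of 52.4% and 6 over all 32851 promoters. *Tnfsf11* had a TATA match (TATAAA, on the opposite strand, bases 32 to 27 before the start), a motif found in 12.4% of promoters. Both had a CCAAT match on the opposite strand, at bases 64 to 60 for *Tnfsf11* and 197 to 193 for *Prune2*, a motif added after the sequences were read and found in 33.8% of promoters. Neither window held the ETS letters CCGGAA (12.0% of promoters), the AP-1 letters TGANTCA (6.75%), the NF-kB letters GGNNTTTCC (4.93%), the SOX letters ACAAAG (16.5%), the letters AGATAA bound by GATA factors (9.99%), the forkhead letters TGTTTAC (3.17%), the CRE letters TGACGTCA (1.55%) or the nuclear receptor letters AAGGTCA (4.08%) on either strand. These are matches of letters only.

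*Tnfsf11* was a low-level transcript in the 72 h XY cultures and highest with FGFRi. Its level with FGFRi was 6.91 CPM in M2, 5.67 in M4, 9.67 in M5 and 12.6 in M6, from 12 to 30 counts per library. In the DMSO libraries it was 1.00 CPM in M2, 2.98 in M4, 2.49 in M5 and 1.43 in M6, from 3 to 6 counts. Every FGFRi library was above every DMSO library, as the choice of the gene required. The group means were 8.71 ± 3.08 and 1.98 ± 0.919 CPM (SD, n = 4), and the log2 fold change was 2.17 with a standard error of 0.494. Without FGFRi library M5 it was 2.12.

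*Prune2* showed the same direction from a similarly low DMSO level. With FGFRi its level was 9.79 CPM in M2, 14.2 in M4, 11.8 in M5 and 10.1 in M6. With DMSO it was 6.33 CPM in M2, 2.98 in M4, 0.997 in M5 and 1.43 in M6. The FGFRi libraries were close together, whereas DMSO library M2, with 19 of the group's 30 counts, was well above the other 3. Means were 11.5 ± 2.02 and 2.93 ± 2.42 CPM (SD, n = 4), a log2 fold change of 1.84 (SE 0.376) that became 2.65 without DMSO library M2 and 1.83 without FGFRi library M5.

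*Comp* had the widest spread of the 3 with FGFRi. It reached 19.6 CPM in M2, 37.7 in M4, 59.1 in M5 and 32.7 in M6, against 9.66, 8.45, 15.5 and 9.52 CPM in DMSO libraries M2, M4, M5 and M6. The lowest FGFRi library was above the highest DMSO library, and M5 was the highest in both groups. Means were 37.3 ± 16.4 and 10.8 ± 3.17 CPM (SD, n = 4), and the log2 fold change was 1.81 (SE 0.389), or 1.49 without FGFRi library M5, the library with the high Sertoli marker sum.

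All 3 genes were DEGs here by the way they were chosen, in a comparison that called 1.8% of genes tested (273 of 15125). Leaving out 1 library took *Tnfsf11* (without DMSO M2 or FGFRi M6) and *Comp* (without FGFRi M5) across the FDR threshold. Tests against the 1.5-fold threshold itself called none of the 3, and DESeq2 called *Tnfsf11* and *Prune2* but not *Comp*. *Comp* was just inside the limit of the choice at 1.81, and the next genes were *Smc1b*, a meiotic cohesin subunit, at 1.79 (SE 0.367, mean 10.1 CPM) and *Derl3*, a protein of endoplasmic reticulum degradation, at 1.71 (SE 0.305, mean 9.04 CPM). On the level condition *Tnfsf11* was the closest inside, with a mean of 5.34 CPM, and 10 DEGs with larger increases than *Comp* were left out because their means were below 5 CPM, the highest being *Actg2* at 4.54 CPM.

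**Figure D1:**
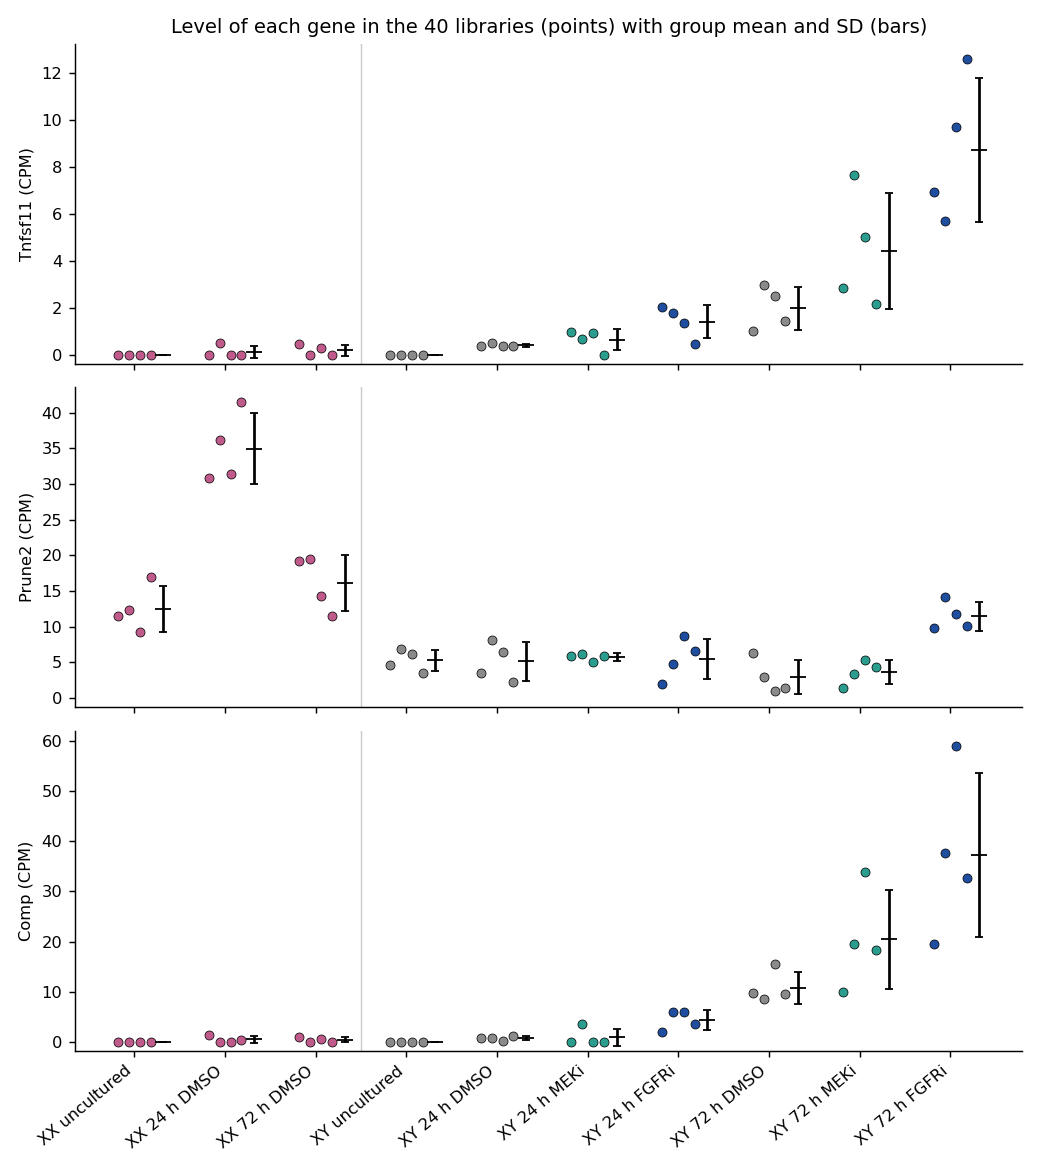
Level (CPM, linear axes) of *Tnfsf11*, *Prune2* and *Comp* in each of the 40 libraries, 4 points per group, with the group mean and SD as bars. *Tnfsf11* and *Comp* were at 0 in uncultured cells and had their highest means with FGFRi at 72 h, while *Prune2* was highest in XX cells at 24 h, between 30.8 and 41.5 CPM.

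With MEKi at 72 h, *Tnfsf11* and *Comp* had means between those of DMSO and FGFRi, and *Prune2* stayed near DMSO. None of the 3 was a DEG in a comparison that called 6.47% of genes, and it shares its DMSO libraries with the comparison that chose the genes. The choice favours low DMSO values, and so a higher fold with MEKi. *Tnfsf11* also passed the filter on low counts through the 72 h FGFRi libraries. With that filter, a fit of the MEKi and DMSO groups alone left out *Tnfsf11* and *Prune2*. *Tnfsf11* was at 2.84 CPM in MEKi library M2, 7.64 in M3, 5.02 in M4 and 2.16 in M5. Libraries M3 and M4 were above every DMSO library and the other 2 were within the DMSO range. The mean was 4.42 ± 2.47 CPM (SD, n = 4) and the log2 fold change 1.24 (95% interval 0.22 to 2.26), with an edgeR quasi-likelihood FDR of 0.115.

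*Comp* was at 9.95 CPM in MEKi library M2, 19.5 in M3, 33.9 in M4 and 18.3 in M5. Libraries M3, M4 and M5 exceeded the highest DMSO library (15.5 CPM), and M2 lay among the DMSO values. The mean was 20.4 ± 9.95 CPM (SD, n = 4) and the log2 fold change 0.95 (95% interval 0.17 to 1.73, edgeR FDR 0.112). It passed the DEG threshold when low-count genes were not filtered (0.97, FDR 0.0384) or when only these 2 groups were fitted (0.95, FDR 0.0231), and fell to 0.57 without MEKi library M4.

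*Prune2* was at 1.42 CPM in MEKi library M2, 3.44 in M3, 5.34 in M4 and 4.31 in M5, all within the range of the DMSO libraries. The mean was 3.63 ± 1.66 CPM (SD, n = 4) and the log2 fold change 0.22 (95% interval -0.64 to 1.09, edgeR FDR 0.787). Without the high DMSO library M2 it was 1.03 (FDR 0.246), and without DMSO library M5 or MEKi library M4 it was slightly negative. The interval includes increases beyond 1.5-fold.

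Set directly against each other at 72 h, the inhibitors were furthest apart for *Prune2*. MEKi libraries had a fitted 3.06-fold lower level than FGFRi libraries, with no overlap (log2 fold change -1.61, 95% interval -2.32 to -0.90, edgeR FDR 0.0017), or -1.61 without FGFRi library M5. For *Tnfsf11* the difference was -0.93 (95% interval -1.78 to -0.09, FDR 0.177), and the MEKi and FGFRi libraries overlapped. For *Comp* it was -0.86 (95% interval -1.57 to -0.15, edgeR FDR 0.135), also with overlap. This made 1 of the 3 genes a DEG, where 6.43% of all genes were. The FGFRi libraries are the ones that chose the genes for their high values. That choice favours lower values with MEKi, so these FDRs are descriptions and no test is read from them.

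The *Comp* difference between inhibitors depended on single libraries. It shrank to -0.55 (edgeR FDR 0.505) without FGFRi library M5 and passed the threshold at -1.24 (FDR 0.0494) without MEKi library M4. The *Prune2* call was lost when edgeR tested against the 1.5-fold threshold itself (FDR 0.0509).

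**Figure D2:**
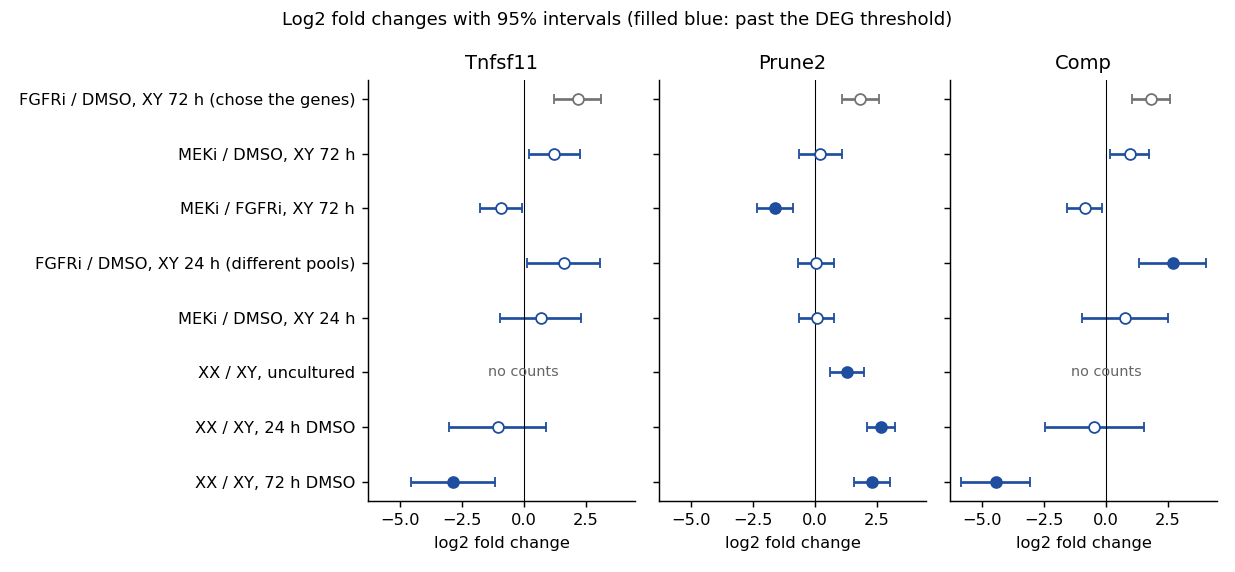
Log2 fold change (points) with 95% interval (bars) of each gene in 8 comparisons, labelled as numerator / denominator, grey for the comparison that chose the genes and filled blue for calls past the DEG threshold. For MEKi against DMSO at 72 h the estimates were 1.24, 0.22 and 0.95, none called, and for XX against XY at 72 h they were -2.86, 2.31 and -4.46, all called.

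At 24 h the inhibitors were compared in libraries that played no part in the choice. *Tnfsf11* passed the filter on low counts through the 72 h FGFRi group, however, and *Comp* through the 72 h XY groups. With that filter, fits of the 24 h libraries alone left both genes out. Both inhibitor comparisons use the same 4 XY DMSO libraries of 24 h. With MEKi none of the 3 genes was a DEG, in a comparison within 1 pool that called 3.27% of genes. *Tnfsf11* was at 0.978, 0.685, 0.912 and 0 CPM in MEKi libraries M1, M4, M6 and M2 and at 0.357, 0.497, 0.383 and 0.389 CPM in DMSO libraries M2 to M5. These are 0 to 2 counts per library, and the difference (log2 0.68, 95% interval -0.96 to 2.32, edgeR FDR 0.776) was not resolvable at this depth. *Prune2* was at 5.87, 6.17, 5.01 and 5.98 CPM in the same MEKi libraries and at 3.57, 8.20, 6.51 and 2.33 CPM in DMSO. The MEKi values all lay inside the DMSO range (log2 fold change 0.08, 95% interval -0.63 to 0.79, edgeR FDR 0.954).

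*Comp* had no counts in 3 of the 4 MEKi libraries at 24 h. Library M4 held 10 counts (3.43 CPM), and M1, M6 and M2 held 0. The DMSO libraries held 1 to 3 counts each (0.192 to 1.17 CPM). The fitted log2 fold change of 0.78 (edgeR FDR 0.748) therefore rests on M4, and without it the MEKi group had no *Comp* counts. Sertoli markers summed to 1074 CPM in M4 and 1657 to 1752 CPM in the other 3 libraries, and Leydig markers to 678 CPM against 496 to 535 CPM, and their part in the *Comp* value was not tested.

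With FGFRi at 24 h, *Comp* was already above DMSO. It was at 2.02 CPM in M1, 5.95 in M3, 5.92 in M4 and 3.50 in M5, all above the highest DMSO library (1.17 CPM). The mean was 4.35 ± 1.93 against 0.704 ± 0.399 CPM (SD, n = 4), with a fitted 6.43-fold higher level (log2 2.69, 95% interval 1.32 to 4.05, edgeR FDR 0.0131). *Comp* was the only one of the 3 called, in a comparison that called 3.27% of genes and in which treatment and pool cannot be told apart. The call was lost without DMSO library M4 (log2 2.25, FDR 0.0757) or FGFRi library M4 (2.48, FDR 0.0595), and in both tests against the 1.5-fold threshold itself (glmTreat FDR 0.213 in edgeR). Fits of the 24 h libraries alone, with the filter on low counts, gave no value for *Comp*.

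*Tnfsf11* with FGFRi at 24 h was at 2.02 CPM in M1, 1.79 in M3, 1.37 in M4 and 0.437 in M5. The first 3 were above every DMSO library and M5, with 1 count, was within their range (log2 1.62, 95% interval 0.15 to 3.09, edgeR FDR 0.243). *Prune2*, at 2.02, 4.76, 8.66 and 6.56 CPM, overlapped DMSO on both sides (log2 0.04, 95% interval -0.68 to 0.76, edgeR FDR 0.977). At 24 h the *Prune2* libraries with FGFRi thus overlapped DMSO, whereas those of *Comp* did not. At 72 h both genes were apart from DMSO by the way they were chosen. The FGFRi effects at the 2 times were not compared by a test, because the 24 h effect crosses the pools.

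Whether the MEKi effect changed between 24 h and 72 h could be tested, since each effect lies within its own pool. It differed by 0.56 for *Tnfsf11* (95% interval -1.71 to 2.83, edgeR FDR 0.895), 0.14 for *Prune2* (-0.97 to 1.25, FDR 0.953) and 0.17 for *Comp* (-2.65 to 2.99, FDR 0.98) on the log2 scale. None was a DEG where 1.41% of genes were. The intervals are wide, most of all for the genes with single counts at 24 h. For *Comp* no value can be given without MEKi library M4 of 24 h, since the group then has no counts.

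The 3 genes differed by sex in opposite directions. In the 72 h DMSO cultures *Tnfsf11* was at 0.470, 0, 0.298 and 0 CPM in XX libraries F11, F4, F7 and F8, that is 0 or 1 count, below all 4 XY libraries. Its means were 0.192 ± 0.233 CPM in XX and 1.98 ± 0.919 CPM in XY cells (SD, n = 4), with a fitted 7.25-fold lower level in XX (log2 -2.86, 95% interval -4.55 to -1.16, edgeR FDR 0.00963). *Comp* was at 0.940, 0, 0.596 and 0 CPM in the same XX libraries. No XX library reached 1 CPM while no XY library was below 8.45 CPM (log2 -4.46, 95% interval -5.86 to -3.06, edgeR FDR 2.15e-06).

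*Prune2* had the reverse pattern at 72 h. It was at 19.3, 19.5, 14.3 and 11.5 CPM in XX libraries F11, F4, F7 and F8, above all 4 XY DMSO libraries. The means were 16.1 ± 3.92 CPM in XX and 2.93 ± 2.42 CPM in XY cells (SD, n = 4), with a fitted 4.96-fold higher level in XX (log2 2.31, 95% interval 1.59 to 3.03, edgeR FDR 1.15e-06), or 3.12 in log2 without XY library M2. The mean in XY cells with FGFRi was 71.0% of this XX level, against 18.2% for XY DMSO, and the FGFRi libraries overlapped the XX libraries. *Prune2* was chosen for a high FGFRi and a low DMSO level, so the gap between these 2 percentages describes the choice. Between the sexes at 72 h all 3 genes were called, where 20.3% of all genes were, and the XY libraries are those used in the choice. That choice favours low XY DMSO values, which widens the difference for *Prune2* and narrows it for *Tnfsf11* and *Comp*. The FDRs between the sexes at 72 h are therefore descriptions and no test is read from them. *Tnfsf11* passed the filter on low counts through the 72 h FGFRi libraries, which chose it. With that filter, a fit of the XX and XY DMSO groups of 72 h alone left it out. Its call was lost with voomWithQualityWeights and treat (-2.30).

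The *Prune2* sex difference was present in libraries independent of the choice. In uncultured cells it was at 11.5, 12.4, 9.30 and 17.0 CPM in XX libraries F2 to F5 and at 4.62, 6.83, 6.21 and 3.48 CPM in XY libraries M2, M3, M5 and M6. The groups did not overlap (log2 1.29, 95% interval 0.59 to 1.99, edgeR FDR 0.00442), making it 1 DEG of the 1 gene with counts, where 17.3% of all genes were. Tests against the 1.5-fold threshold itself lost this call (glmTreat FDR 0.0703 in edgeR). After 24 h in DMSO it was at 30.8, 36.1, 31.4 and 41.5 CPM in XX libraries F4, F5, F6 and F9, all far above the XY libraries at 2.33 to 8.20 CPM. The log2 difference was 2.67 (95% interval 2.10 to 3.25, edgeR FDR 9.98e-11), and 1 of the 3 genes was called where 19.6% of all genes were.

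During the first day of culture *Prune2* rose by a fitted 2.72-fold in XX cells (log2 1.44, 95% interval 0.89 to 2.00, edgeR FDR 0.000183), where 7.73% of genes were DEGs. In XY cells it was at 5.28 ± 1.52 CPM before and 5.15 ± 2.68 CPM after (SD, n = 4), a log2 change of 0.06 (95% interval -0.66 to 0.79, edgeR FDR 0.929), where 14.4% of genes were DEGs. The difference between the sexes in this change was 1.38 (95% interval 0.45 to 2.31), but its edgeR FDR of 0.067 did not pass the threshold, where 6.2% of genes did. It passed in DESeq2 (1.40, adjusted p 0.0357) and without XX library F5 or XY library M6 of the uncultured cells or XY library M3 of 24 h (FDR 0.0469, 0.0496 and 0.0309).

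*Tnfsf11* and *Comp* had no counts in any of the 8 uncultured libraries, out of 8781058 counts in XX and 8558407 in XY. A count of 0 allows up to 3 counts, or 0.351 CPM in XX and 0.370 CPM in XY, which covers counting error only. After 24 h in DMSO, XY cells held 6 *Tnfsf11* counts over 4 libraries, pooled at 1.11 times that limit, and 9 *Comp* counts, at 1.66 times it. XX cells held 5 *Comp* counts, at 1.24 times the limit, in F4 and F9 alone, and 2 *Tnfsf11* counts, both in F5, which is below it. These ratios leave out the counting error at 24 h, so they are not lower bounds on a rise. No rise was a DEG (edgeR FDR 0.108 for *Tnfsf11* and 0.132 for *Comp* in XY, 0.394 and 0.281 in XX). No fitted fold is given for these comparisons, because a group at 0 leaves it undefined. At 24 h the sexes were not resolvable for either gene, with log2 differences of -1.06 (95% interval -3.01 to 0.89, edgeR FDR 0.491) for *Tnfsf11* and -0.47 (-2.46 to 1.52, FDR 0.79) for *Comp*, the latter at 0.08 without XX library F5 and -2.01 without F4.

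Over the 10 groups the order of mean *Tnfsf11* levels was FGFRi 72 h, MEKi 72 h, XY DMSO 72 h, FGFRi 24 h, MEKi 24 h, XY DMSO 24 h, XX 72 h, XX 24 h and then the uncultured cells at 0. Only the steps from FGFRi to MEKi at 72 h and from FGFRi to MEKi at 24 h exceeded the larger SD of the 2 neighbours, and the libraries overlapped at both. The 24 h step also crosses the pools. *Comp* had the same order apart from the 2 cultured XX groups, which swapped places. Its steps exceeded the larger SD from FGFRi to MEKi at 72 h, from XY DMSO at 72 h to FGFRi at 24 h, the single step without overlap, and from FGFRi to MEKi at 24 h.

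*Prune2* was ordered differently, with XX 24 h first at 35.0 ± 4.96 CPM (SD, n = 4), then XX 72 h, uncultured XX at 12.5 ± 3.22 CPM, and FGFRi 72 h. The 6 remaining XY groups followed, from 5.76 ± 0.510 CPM with MEKi at 24 h down to 2.93 CPM with DMSO at 72 h. The steps that exceeded the SD, both free of overlap, were from XX 24 h to XX 72 h, and from FGFRi 72 h to MEKi 24 h, and both cross the pools. FGFRi 72 h was the single XY group whose *Prune2* mean stood next to the XX groups. The gene was chosen for its high values in that group, so this place in the order only describes the choice. The 6 other XY groups could not be ordered beyond their spread.

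Across the 40 libraries, *Tnfsf11* and *Comp* varied together, with a Pearson r of 0.913 and a Spearman rho of 0.896 on log2 CPM. *Prune2* followed neither, with r of -0.30 and -0.31. These are descriptions. The libraries share groups and pools, the 2 genes were both picked for the same contrast, and low counts set much of the lower range.

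**Figure D3:**
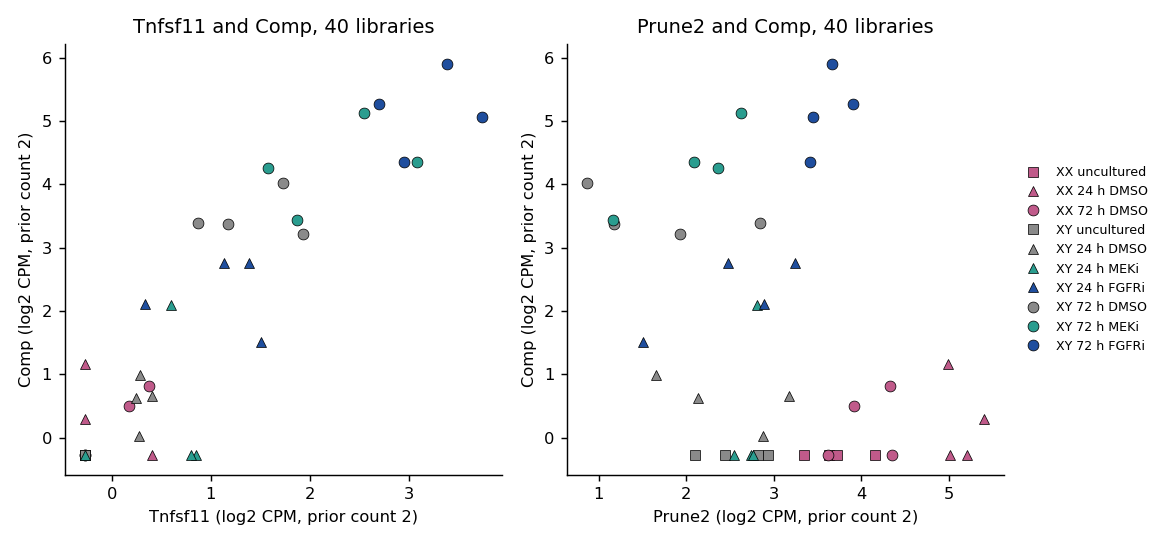
Log2 CPM (prior count 2) of *Comp* against *Tnfsf11* (left) and against *Prune2* (right), 1 point per library, with squares for uncultured cells, triangles for 24 h and circles for 72 h, coloured by sex and treatment. *Comp* and *Tnfsf11* lie along 1 line (r 0.913), while in the right panel XX libraries lie at high *Prune2* and low *Comp*.

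Among 12981 tested genes with a mean of at least 5 CPM, the 5 whose levels were most like *Tnfsf11* over the 40 libraries were *Comp* (r 0.913), *Pitx1*, a homeobox gene of the hindlimb and pituitary (0.910), *Usp2* (0.858), *Oxct1* (0.855) and *Mgarp* (0.845). Those most like *Comp* were *Pitx1* (0.914), *Car10* (0.872), *Slitrk5* (0.861), *Lsamp* (0.855) and *Oxct1* (0.850). *Tnfsf11* is missing from this second list because its own mean over the 40 libraries was below 5 CPM. *Pitx1* was thus high on both, with mean levels of 8.53 CPM with DMSO, 13.5 with MEKi and 20.4 with FGFRi at 72 h, against 0.384 in XX cells. *Prune2* was most like *Gpd2*, a mitochondrial glycerol-3-phosphate dehydrogenase (r 0.83), *Epn3* (0.823), *Tmie* (0.810), *Chpt1* (0.804) and *Pacsin2* (0.801). All 5 had higher means in XX than in XY DMSO cells at every time, such as *Gpd2* at 85.1 and 34.7 CPM at 72 h.

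The receptors of RANKL were too low to test. At 72 h, *Tnfrsf11a* held 22 counts over the 4 XY DMSO libraries, 6 with FGFRi and 1 with MEKi. The decoy receptor gene *Tnfrsf11b* held 17 counts with DMSO, 31 with FGFRi and 12 with MEKi. *Tnfsf11* itself held 17, 83 and 46 counts in DMSO, FGFRi and MEKi. Of 17 other genes of the pathway that could be tested, from the alternative receptor *Lgr4* to NF-kB subunits, none was a DEG with FGFRi, against 1.8% of all genes (median log2 fold change -0.04, against -0.0004 over all genes tested). With MEKi 1 of the 17 was a DEG, *Nfkb1*, which was lower (-0.60), where 6.47% of all genes were DEGs, so nothing is read from it. Among the relatives of *Tnfsf11*, 15 of 17 other TNF superfamily ligands did not pass the filter, with 0 to 88 counts over all 40 libraries. The 2 that did, *Eda* (-0.46) and *Tnfsf12* (-0.08), were not called with FGFRi.

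None of the 5 testable relatives of *Prune2*, including its namesake *Prune1* (FGFRi log2 fold change 0.31) and *Bnip2* (0.22), was a DEG with either inhibitor at 72 h, where 1.8% of all genes were with FGFRi and 6.47% with MEKi. Their median was 0.31 with FGFRi and 0.29 with MEKi. *Arhgap1* was higher in XX than XY cells at 72 h, at 0.88, and was the 1 relative of 5 called there, against 20.3% of all genes.

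*Comp* had 1 relative that rose with both inhibitors. *Thbs4*, another pentameric thrombospondin, was at 6.30 ± 2.27 CPM with DMSO, 18.9 ± 5.02 with FGFRi and 18.2 ± 6.36 with MEKi at 72 h (SD, n = 4). Its log2 fold changes were 1.57 (edgeR FDR 0.0112) and 1.49 (FDR 0.00511), and MEKi minus FGFRi was -0.08 (FDR 0.925), the first 2 comparisons sharing the DMSO libraries. Like *Comp* it was lower in XX cells at 72 h (-1.74, FDR 0.00586). *Thbs1*, *Thbs2* and *Thbs3* were not called with either inhibitor at 72 h.

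Of 17 tested genes for matrix proteins that bind COMP and proteases that cut it, 0 were higher with FGFRi and 2 were lower, *Col14a1* (-0.62) and the COMP-cutting protease gene *Adamts12* (-0.84). Their median was -0.22. Of all 15125 genes 131 were higher and 1.8% were called in either direction, so nothing is read from a count of 0 in a list this short. With MEKi, *Acan* was higher (1.86), and *Col9a3* (-2.02) and *Col14a1* (-1.496) were lower. Of 8 cartilage and tendon genes 0 were DEGs with FGFRi, against 1.8% of all genes. The defining cartilage collagen gene *Col2a1* was at 1.60 CPM with DMSO and was not called. Between the sexes, 12 of the 17 COMP partners were lower in XX cells at 72 h, the direction of *Comp*, and 1 was higher, where 1635 of all 15125 genes were lower and 1432 higher.

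**Figure D4:**
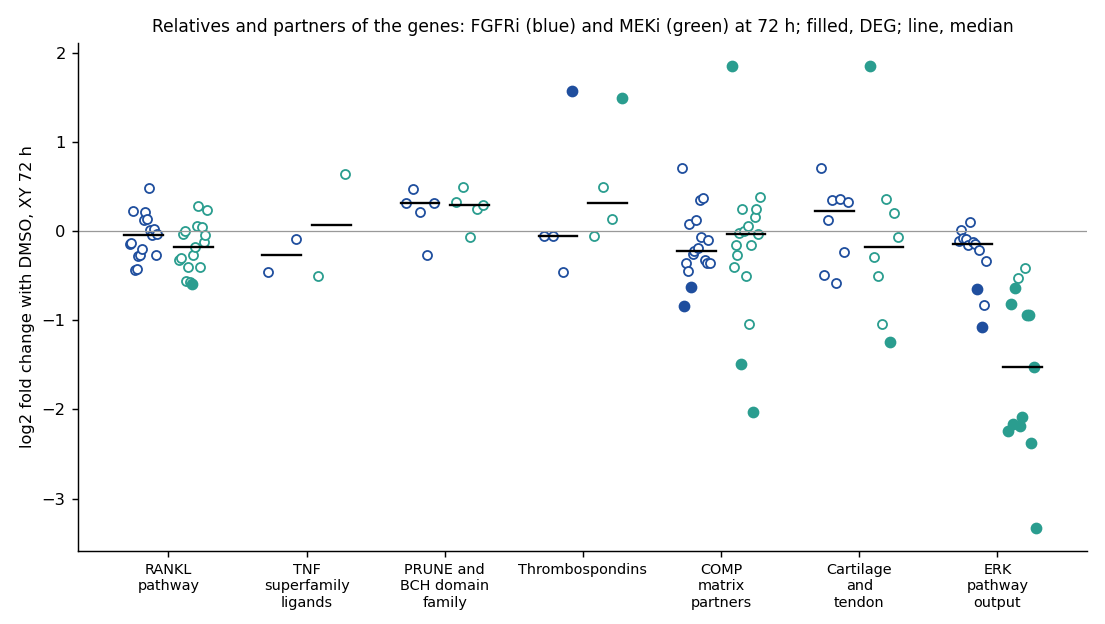
Log2 fold change at 72 h in XY cells for the tested relatives and partners of the 3 genes and for ERK pathway output genes, FGFRi in blue and MEKi in green, filled for DEGs, with a line at each list's median. *Thbs4* is the 1 thrombospondin apart from the rest (1.57 and 1.49), and the ERK output genes lie lowest with MEKi (median -1.53).

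Cell type markers also moved at 72 h and are given beside the 3 genes for that reason. Of all genes tested, 6.47% were called with MEKi and 1.8% with FGFRi at that time. The 8 smooth muscle and pericyte markers summed to 609 to 753 CPM with DMSO, 1054 to 1196 with MEKi and 733 to 1136 with FGFRi, where *Acta2* (0.71), *Myh11* (0.86) and *Tagln* (1.08) were higher and *Rgs5* (-1.21), *Notch3* (-0.77) and *Cspg4* (-0.77) lower. The 10 Sertoli markers summed to 871 to 1443 CPM with DMSO, 612 to 893 with MEKi and 1332 to 2512 with FGFRi, with 0 of 10 called for FGFRi and 6 lower with MEKi, such as *Amh* (-1.90). With MEKi, 5 of 7 endothelial markers were lower, among them *Pecam1* (-2.78), and their sum was 45.8 to 65.4 CPM against 76.6 to 139.6 with DMSO and 70.1 to 121.7 with FGFRi. Coelomic epithelium markers summed to 484 to 541 CPM with MEKi, 296 to 402 with DMSO and 349 to 432 with FGFRi, with *Upk3b* (0.82) and *Krt19* (0.71) higher with MEKi. The 7 tested macrophage markers were lower for 6 with each inhibitor, and the list summed to 44.7 to 133 CPM with DMSO against 11.5 to 23.9 with FGFRi. Macrophage sums were thus below DMSO in every library with either inhibitor, and smooth muscle sums were above it in all 4 MEKi libraries and in the FGFRi libraries other than M5. The part of these cell types in the levels of the 3 genes was not tested.

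*Prune2* is the gene with higher levels in XX cells, so 8 pre-granulosa markers are given beside it. Their part in its level was not tested. At 24 h they summed to 346 to 356 CPM with FGFRi and 273 to 330 with DMSO, across pools. Of the 8, 2 were DEGs and higher there, where 3.27% of all genes were called. At 72 h these 8 markers summed to 315 to 376 CPM with DMSO and 294 to 352 with FGFRi, against 1652 to 1960 in XX cells. Of the 8, *Rspo1* was higher (0.66) and *Wnt4* lower (-0.95) at 72 h, and *Foxl2* was at 17.8 CPM with DMSO and 16.3 with FGFRi against 232 in XX cells. The study itself reported no significant change of *Rspo1*, *Wnt4* or *Foxl2* with FGFRi in somatic cells, at the same FDR and fold limits. Its methods test against the fold limit itself, and that test, voomWithQualityWeights with treat, called 0 genes in this comparison. Foetal Leydig markers summed to 395 to 600 CPM with DMSO, 816 to 1284 with MEKi and 523 to 967 with FGFRi (523 to 796 without M5). Interstitial markers summed to 1813 to 2225 CPM with DMSO, 1669 to 2267 with MEKi and 1033 to 1895 with FGFRi, or 1624 to 1895 without M5. Germ cell markers stayed at 11.5 to 42.3 CPM over the 3 groups.

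**Figure D5:**
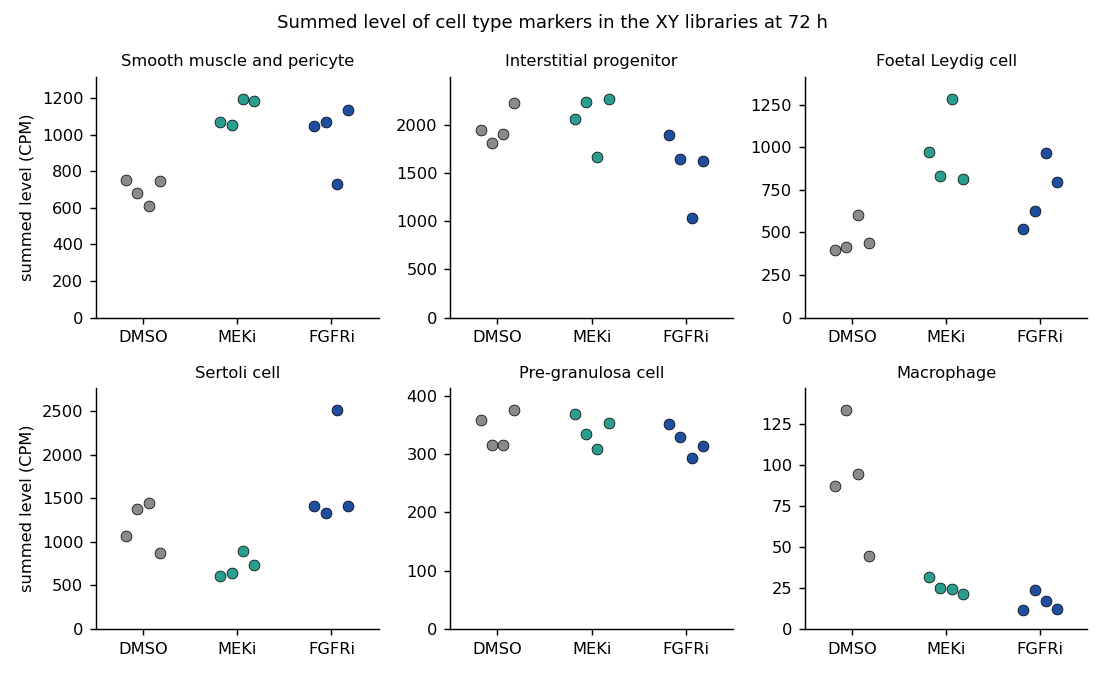
Summed level (CPM, axes from 0) of the markers of 6 cell types in the XY libraries at 72 h, 1 point per library. Macrophage sums are 44.7 to 133 CPM with DMSO and 11.5 to 23.9 with FGFRi, and the single high FGFRi point in the Sertoli panel (2512 CPM) is library M5.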

How the data were processed

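Somatic cells of cultured foetal mouse gonads were profiled by bulk RNA-seq (oligo-dT indexed libraries, Illumina sequencing) in 40 libraries. The authors mapped reads to GRCm39 with Rsubread, counted them per GENCODE gene by strand with scPipe, and deposited 1 table of raw counts with both lanes added; 0 columns belonged to other samples. Groups came from the library names in the labels. Of 42422 genes, 40391 were named from the annotation.

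Counts were analysed in R 4.3.3 with edgeR 4.0.16: filterByExpr by group, TMM scaling, 1 model with a mean per group over all 40 libraries, and the quasi-likelihood test, with Benjamini-Hochberg adjustment (FDR) over 15125 genes. Intervals are the estimate ± 1.96 standard errors. CPM used TMM-scaled totals. Named genes were the 3 genes, the next 2 in the same order, the 5 genes most correlated with each over 40 libraries, and the members of fixed lists. The 3 genes and the lists were chosen with earlier results of these data known. The scripts were tested on simulated data. Alternatives included other scaling and filters, DESeq2 1.42.0, edgeR's glmTreat, limma 3.58.1 (voomWithQualityWeights with treat, as in the study's methods), fewer libraries in the fit, replicate number as a block and leaving out each library. Between FGFRi and DMSO at 72 h, same-numbered libraries correlated at 0.00 to 0.12 and other pairs at -0.13 to 0.11. The ranges overlap and do not settle whether a number marks a shared source, so the numbers were not taken to pair libraries. Promoter sequences came from RefSeq (GRCm38.p6).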

Additional observations from a re-analysis of the deposited data

Results flagged for a closer look

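Of 26 groups with counts, 2 held a library far from the other 3. In both the other 3 libraries held no counts, which by itself makes any library with a count stand apart, so the usual rate of about 1 group in 20 by chance does not apply. *Comp* stood at 3.43 CPM (10 counts) in the 24 h MEKi library M4, with 0 counts in the other 3 libraries of the group. *Tnfsf11* stood at 0.495 CPM (2 counts) in the 24 h XX library F5, with 0 counts in the other 3.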

How the results depend on the processing

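Of 258 values of the 3 genes under other tools, scalings, filters and library choices, 231 kept their direction and their side of the threshold, and of 253 with 1 library left out, 223 did; the cause of the changes was not tested. The calls lean on the test. With glmTreat and with voomWithQualityWeights and treat, DEG counts fell for FGFRi at 72 h from 273 to 5 and 0 (379 and 166 genes at an unadjusted p below 0.05; DESeq2 gave 285, without *Comp*), MEKi at 72 h from 979 to 132 and 75, MEKi against FGFRi from 972 to 208 and 90, MEKi at 24 h from 495 to 157 and 88, FGFRi at 24 h from 495 to 27 and 16, XX against XY from 2622 to 1388 and 936 uncultured, 2961 to 1582 and 1156 at 24 h and 3067 to 1490 and 1087 at 72 h, the first day from 2178 to 688 and 421 in XY and 1169 to 356 and 214 in XX, sex by first day from 938 to 259 and 119, and MEKi by time from 213 to 8 and 1 (350 with no filter). Both tests also lost *Prune2* between the inhibitors (-1.61 and -1.75) and between uncultured sexes (1.29 and 1.29) and *Comp* with FGFRi at 24 h (2.69 and 2.86), and voom lost *Tnfsf11* between the sexes at 72 h (-2.30) and turned *Comp* with MEKi at 24 h (-0.36). *Comp* with MEKi at 72 h was called with no filter (0.97) or only its groups (0.95), and between the inhibitors with no filter (-0.87) or only its time point (-0.86). DESeq2 called *Prune2* for sex by first day (1.40). *Prune2* with FGFRi at 24 h turned with total counts (-0.029) and voom (-0.015).

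With replicate number as a block, which the labels do not tie to a shared source, *Comp* between the inhibitors was called (-0.87), *Tnfsf11* between the sexes at 72 h was not (-5.28), *Prune2* over the first day in XY (-0.035) and *Prune2* (-0.35) and *Comp* (-0.46) for MEKi by time turned, and DEG counts were 302 for MEKi at 24 h, 2022 for the sexes at 72 h and 71 for MEKi by time; no other call changed. Leaving out 1 library gave, for *Prune2*, 1.59 to 2.65 with FGFRi and -0.076 to 1.03 with MEKi at 72 h, -0.12 to 0.36 with MEKi and -0.27 to 0.32 with FGFRi at 24 h, -0.22 to 0.26 over the first day in XY, 1.18 to 1.66 for sex by first day and -0.16 to 0.96 for MEKi by time. For *Comp* it gave -1.24 to -0.55 between the inhibitors, 0.36 to 1.18 with MEKi and 2.25 to 2.97 with FGFRi at 24 h, -2.01 to 0.079 between the sexes at 24 h and -0.23 to 0.59 for MEKi by time. No value could be had for *Comp* without the 24 h MEKi library M4 or for *Tnfsf11* between the sexes at 24 h without XX library F5, since these groups then had 0 counts. Of the 5 genes most like *Tnfsf11*, *Prune2* and *Comp*, 3, 0 and 1 stayed over group means, and 2, 2 and 1 by Spearman rho. Depth limits *Tnfsf11* and *Comp* most, with 0 to 4 *Tnfsf11* counts in each library up to 24 h.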
